A study of Mus musculus with 8 samples.

Results

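Nuclear receptor genes were examined in the ventral prostate of mice that carry a human SKP2 knock-in. The genes were taken from the expression table by name, as every symbol of the Nr series (Nr, a digit, a letter and a digit) together with a fixed set of receptors with other names, such as Esr1, Rara, Rxrg and Pparg. This gave 47 genes of the 36333 in the table. The rule used no expression value, but it was set with earlier results of these data known. Ventral lobes were dissected from 4 hSKP2-KI and 4 WT males of the FVB/N strain at 12 months of age, and polyadenylated RNA was sequenced with 1 library per mouse. In the hSKP2-KI mice a P2A-linked human SKP2 coding sequence had been inserted into exon 1 of the X-linked probasin gene (Pbsn), so that the probasin promoter drove it in prostate epithelium. The males came from heterozygous knock-in females mated to WT FVB/N males, and the founder line that was sequenced is not given in the sources used here. The WT mice carried no insertion. Values are TPM, a transcript level corrected for transcript length and scaled to a fixed total in each library, and without read counts. The methods of the study name a nominal sequencing depth shared by all libraries, and the number of reads obtained in each library is not given in the sources used here.

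Nuclear receptors are transcription factors that bind DNA through zinc fingers, and many of them are switched by small fat-soluble ligands such as steroids, retinoic acid, vitamin D, thyroid hormone, fatty acids and oxysterols. In the absence of ligand several of them recruit corepressors, and ligand exchanges these for coactivators. Steroid receptors act mostly as homodimers, whereas retinoic acid, vitamin D, thyroid hormone, PPAR and LXR receptors pair with a retinoid X receptor. In the prostate, estrogen, glucocorticoid, vitamin D and retinoid receptors are expressed in its epithelium and stroma.

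The targeted locus separated the genotypes in every library. Pbsn was at 93.0 to 174 TPM in hSKP2-KI and 3980 to 9232 TPM in WT, and reads assigned to Skp2 gave 37.3 to 60.6 TPM against 1.05 to 2.27 TPM, whether they were of mouse or human sequence being not tested. Because the total is fixed, the share of a few secretory genes moves all other values: Sbp, Spink1 and Sbpl, abundant secretory genes of the lobe, held 32.1 to 34.3% of all TPM in hSKP2-KI and 40.4 to 45.8% in WT. The median log2 fold change of all 13080 genes tested (those reaching 1 TPM in 4 or more of the 8 samples) was 0.23 in the TPM as deposited and -0.01 after median-ratio scaling, in which each library is divided by the median ratio of its genes to their mean over libraries. Both values are therefore given for each result, and a gene is described as higher or lower without further comment only where it passed in both. Log2 fold changes are hSKP2-KI minus WT on the log2(TPM + 1) scale, which understates the change of low genes, and adjusted p-values come from limma with Benjamini-Hochberg adjustment over all genes tested. Marker lists also moved with genotype. Mean log2(TPM + 1) over 10 fibroblast markers was 6.16 to 7.04 in hSKP2-KI and 5.36 to 5.82 in WT, with 4 of the 10 higher in both scalings. After scaling 9 of the 10 lay above 0. Gpx3, the most abundant, gave -0.31 as deposited and -0.58 after scaling and passed in neither. The summed TPM of the 10 overlapped between genotypes (1899 to 2769 in hSKP2-KI and 1736 to 2619 in WT). Over 8 smooth muscle markers it was 7.49 to 8.00 against 6.87 to 7.18, with 5 of the 8 higher in both. For 8 endothelial markers the values were 2.90 to 3.50 against 2.31 to 2.73, and for 4 urothelial markers 4.07 to 5.61 against 3.22 to 3.72. In the endothelial and the urothelial list, 2 genes each were higher in both. Of all genes, 6.92% were higher in both. The 5.61 was that of hSKP2-KI mouse 4, which had 12.5 TPM of Upk3a, against at most 0.312 TPM in the other mice. Macrophage markers overlapped between genotypes (3.47 to 4.49 against 2.63 to 3.63). Of the 6 seminal vesicle markers, Svs2, Svs3a and Pate4 were listed at 0 in all 8 samples. Svs4, Svs5 and Svs6 reached at most 0.169, 0.486 and 0.317 TPM. Leukocyte, basal epithelial, adipocyte, skeletal muscle, Schwann cell and erythrocyte lists overlapped between genotypes in both scalings, and the luminal epithelial and neuroendocrine lists did so after scaling. The part of these shifts in any receptor value below was not tested, and in bulk tissue more cells of a type and more RNA per cell cannot be told apart.

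Of the 47 receptor genes, 33 passed the filter on low values and 14 did not. In the TPM as deposited, 9 of the 33 passed the test (27.3%), 8 higher and 1 lower in hSKP2-KI, where 33.9% of all genes passed, 32.7% higher and 1.23% lower. After median-ratio scaling 3 of the 33 passed (9.09%), against 11.2% of all genes (6.92% higher and 4.25% lower), and the same 3 had passed before scaling in the same direction, against 8.13% of all genes. These 3 were Rarb and Nr2f2, which were higher (6.92% of all genes were higher in both), and Rxrg, which was lower (1.21%). Knock-in and WT values did not overlap for 10 of the 33 on the higher side and 1 on the lower side as deposited, against 34% and 1.03% of all genes, and for 2 and 1 after scaling, against 10.3% and 8.91%. An unadjusted p under 0.05 after scaling was found for 6 of the 33, against 27.8% of all genes. The median log2 fold change of the 33 was 0.21 as deposited and -0.02 after scaling, close to that of all genes. After scaling 14 of the 33 lay above 0 and 19 below. The 95% interval excluded a change of 1 log2 unit in either direction for 31 of them, Rarb and Nr1d1 being the others. Their share of the transcriptome was small in every mouse: the 47 genes summed to 530 to 594 TPM in hSKP2-KI and 435 to 523 TPM in WT.

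**Figure D1:**
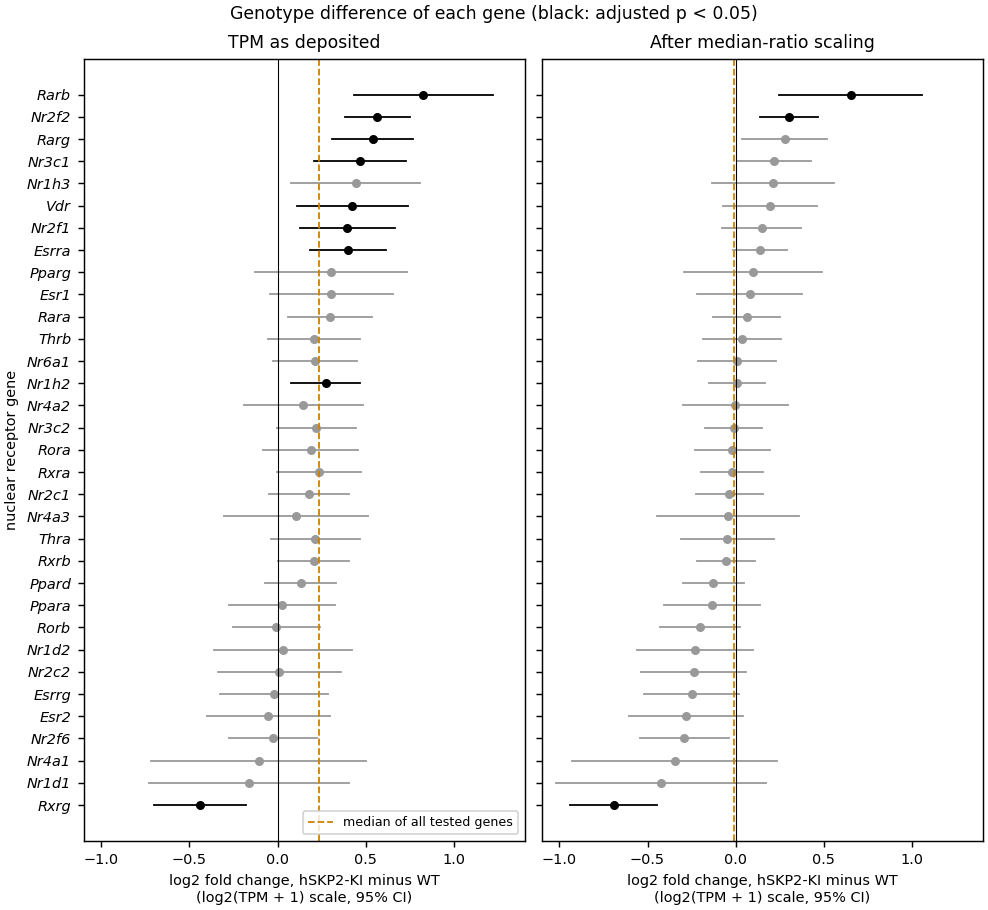
Log2 fold change of each of the 33 receptor genes tested, hSKP2-KI minus WT on the log2(TPM + 1) scale, with its 95% confidence interval, in the TPM as deposited (left) and after median-ratio scaling (right). Black marks an adjusted p under 0.05 and the dashed line is the median of all 13080 genes, which moves from 0.23 to -0.01; Rarb, Nr2f2 and Rxrg are black in both panels.

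The most abundant receptor transcript was Nr1h2, the ubiquitous liver X receptor beta, with TPM of 81.5, 85.3, 70.7 and 79.7 in hSKP2-KI and 58.6, 71.6, 62.2 and 69.6 in WT. Its lowest value was above the highest of the next gene, Nr2f6, so its place in the order held in every library. Nr2f6, an orphan receptor of the COUP group, had TPM of 55.5, 57.2, 41.8 and 42.8 in hSKP2-KI and 47.0, 51.7, 46.5 and 54.2 in WT, and the genotypes overlapped. Nr2f2, described below, had the third mean, and these 3 genes made up 30.7% of the mean receptor total. Their order held on average only: Nr2f2 was above Nr2f6 in hSKP2-KI mice 3 and 4, and Nr1d1 was above Nr2f2 in hSKP2-KI mouse 2 and WT mice 1 and 4. The following ranks could not be separated either: Nr1d1, Esrra, Nr1d2, Rarg, Rxrb and Thra had means over all 8 mice of 35.8, 32.8, 31.8, 31.5, 30.9 and 28.6 TPM, with overlapping ranges. In all, 10 genes had a mean over 20 TPM and 15 a mean over 10 TPM.

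**Figure D2:**
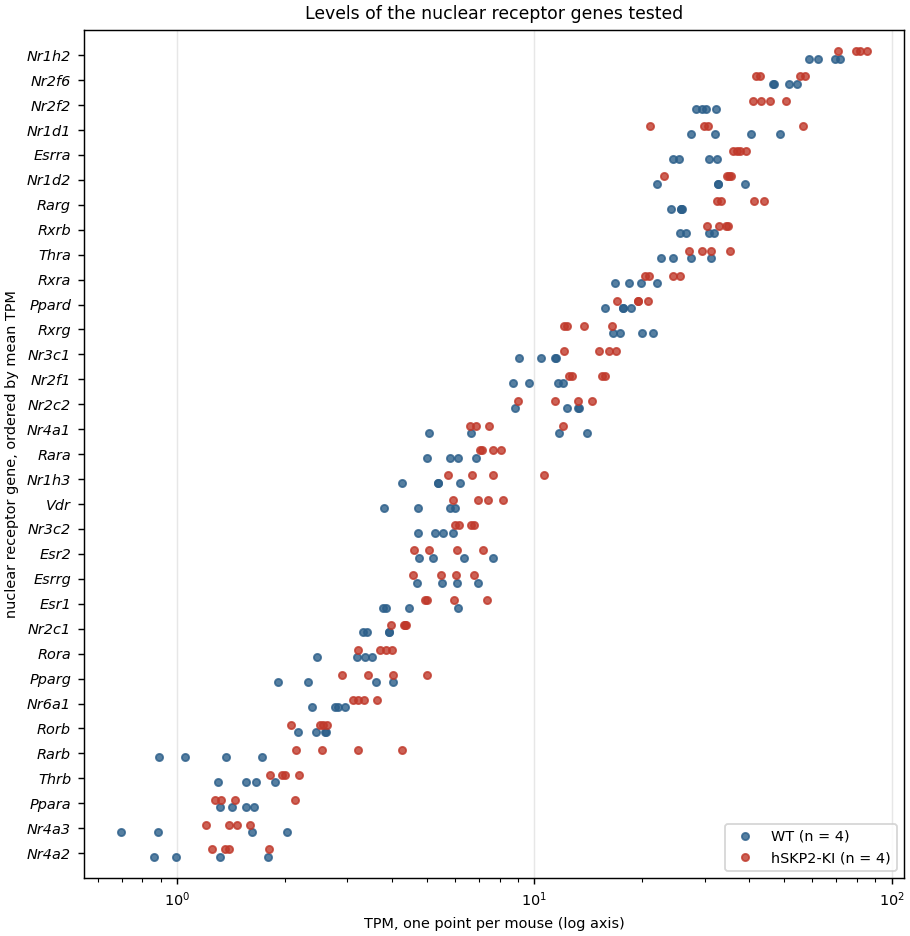
TPM of the 33 receptor genes tested, 1 point per mouse on a log axis, ordered by the mean over all 8 mice (blue WT, red hSKP2-KI, n = 4 each). Nr1h2 lies above every other gene in all mice, and the red points of Rarb and Nr2f2 lie to the right of the blue ones while those of Rxrg lie to the left.

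Among the retinoic acid receptors, which bind all-trans retinoic acid, Rarb had the largest log2 fold change of the 33 receptors in the TPM as deposited. Rarb is itself a classical target of retinoic acid: one of its promoters holds a response element made of a repeated receptor site. The RefSeq promoter windows (GRCm38.p6, 250 bases before to 50 bases after a start site) covered 43 of the 47 genes in 64 windows and were searched on both strands for such repeats, written GNTCANNNNNNGNTCA, in which 5 bases lie between the hexamers. It was found in 0.861% of all 32851 windows and in 1 of the 64 receptor windows, that of Rarb (chr14:16575427-16575726, minus strand), at bases -52 to -37 from the start site. Of the 7 retinoic acid receptor targets listed below, 4 had a window, and only that of Cyp26a1 held the repeat. The window of Cyp26a1 (chr19:37697558-37697857, plus strand), which encodes an enzyme that degrades retinoic acid and is another classical target, held it at -32 to -17. The stretches of 30 bases around the match are shown because they carry the known response elements of these genes, with the match in capitals. They lie at chr14:16575506-16575535 and chr19:37697769-37697798.
Rarb: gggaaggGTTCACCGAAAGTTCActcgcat
Cyp26a1: ttaaagaTGAACTTTGGGTGAACtaatttg
The Cyp26a1 match reads on the opposite strand. Repeats with 1, 2 or 4 bases between the hexamers (GNTCANNGNTCA, GNTCANNNGNTCA and GNTCANNNNNGNTCA) were in 1.26%, 1.12% and 0.858% of all windows and in none of the 64. A match is a description of the letters and shows no binding in these samples.

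Rarb TPM was 4.27, 2.55, 2.16 and 3.20 in the hSKP2-KI mice and 1.05, 1.37, 1.73 and 0.891 in the WT mice. Every hSKP2-KI mouse was above every WT mouse, although all values were low. The mean was 3.05 ± 0.924 TPM in hSKP2-KI and 1.26 ± 0.371 TPM in WT (SD, n = 4), a ratio of 2.42. The log2 fold change was 0.83 (SE 0.18, adjusted p = 0.00802) as deposited and 0.65 (SE 0.18, adjusted p = 0.0471) after scaling, and it was 1.20 with a pseudocount of 0.1. With 1 mouse left out, the difference as deposited passed in 8 of 8 fits (0.69 to 0.94). After scaling it passed in 2 of 8 fits, those without WT mouse 3 or hSKP2-KI mouse 3, and ranged over 0.51 to 0.76 with adjusted p of 0.0379 to 0.111. It was highest in hSKP2-KI mouse 1, where the fibroblast list was at 6.16, the lowest of the 4 knock-in values, and the smooth muscle list at 7.80, the second highest. It was lowest among the knock-in mice in mouse 3, where the smooth muscle list was also lowest (7.49). Rarb lies on the minus strand of chromosome 14 (16430839 to 16819156, GRCm38), and 1793 exonic bases, 34.1% of its exon length in GENCODE M21, are shared with exons of Top2b on the other strand. Whether the counting used strand is not given in the sources used here, so reads from the shared stretch could not be assigned to either gene. Top2b, a DNA topoisomerase, had TPM of 32.2, 34.7, 41.6 and 36.5 in hSKP2-KI and 28.6, 32.1, 33.4 and 32.8 in WT. Top2b was highest in hSKP2-KI mouse 3, the knock-in mouse with the lowest Rarb, and among WT mice it was highest in mouse 3, which had the highest Rarb of the WT mice.

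Rarg, the main retinoic acid receptor of epithelia, was the most abundant of the group. Its TPM was 41.1, 33.2, 32.4 and 43.8 in hSKP2-KI and 25.8, 25.7, 24.1 and 25.9 in WT, without overlap. The log2 fold change was 0.54 (SE 0.10, adjusted p = 0.00490) as deposited and 0.28 (SE 0.11, adjusted p = 0.124) after scaling, where the genotypes overlapped. Rara, which is broadly expressed, had 7.06 to 8.07 TPM in hSKP2-KI and 5.003 to 6.86 TPM in WT, and did not pass in either (0.30, adjusted p = 0.0555, and 0.06, adjusted p = 0.684). Whether the difference of Rarb exceeded those of Rara and Rarg was not tested.

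The retinoid X receptors are the shared partners of many other receptors. Rxrg was the only receptor lower in hSKP2-KI in both scalings. Its TPM was 16.5, 12.1, 13.8 and 12.3 in hSKP2-KI and 16.6, 19.98, 17.3 and 21.5 in WT, without overlap, though hSKP2-KI mouse 1 and WT mouse 1 nearly met. The mean was 13.7 ± 2.03 TPM against 18.9 ± 2.29 TPM (SD, n = 4). The log2 fold change was -0.44 (SE 0.12, adjusted p = 0.0191) as deposited and -0.69 (SE 0.11, adjusted p = 0.00642) after scaling. After scaling it passed in 8 of 8 fits with 1 mouse left out (-0.79 to -0.64). As deposited it passed in 5 of 8, and was lost without WT mouse 4 (-0.38, adjusted p = 0.0517), without hSKP2-KI mouse 2 (-0.39, adjusted p = 0.0507) and without hSKP2-KI mouse 4 (-0.40, adjusted p = 0.0515). Rxra and Rxrb, its more widely expressed paralogs, did not pass in either. Rxra was at 20.4 to 25.6 TPM in hSKP2-KI and 16.8 to 22.1 TPM in WT (0.23 as deposited, -0.02 after scaling), and Rxrb at 30.4 to 34.9 TPM against 25.6 to 31.8 TPM (0.20 and -0.06). Rxrg was below Rxra in 4 of 4 hSKP2-KI mice and in 3 of 4 WT mice. Within a mouse, where scaling cancels, the ratio of Rxrg to Rxra was 0.807, 0.471, 0.657 and 0.505 in hSKP2-KI and 0.987, 0.905, 0.942 and 1.08 in WT. The ratio of Rxrg to Rxrb was 0.351 to 0.472 against 0.625 to 0.696. Neither ratio overlapped between genotypes, and both were chosen after the values of Rxrg were seen and are given without a test. Of the marker lists, the luminal epithelial list differed by 0.18 as deposited and -0.08 after scaling. The adipocyte list differed by -0.21 and -0.46, with the genotypes overlapping in both. The part of cell composition in the Rxrg difference was not tested.

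**Figure D3:**
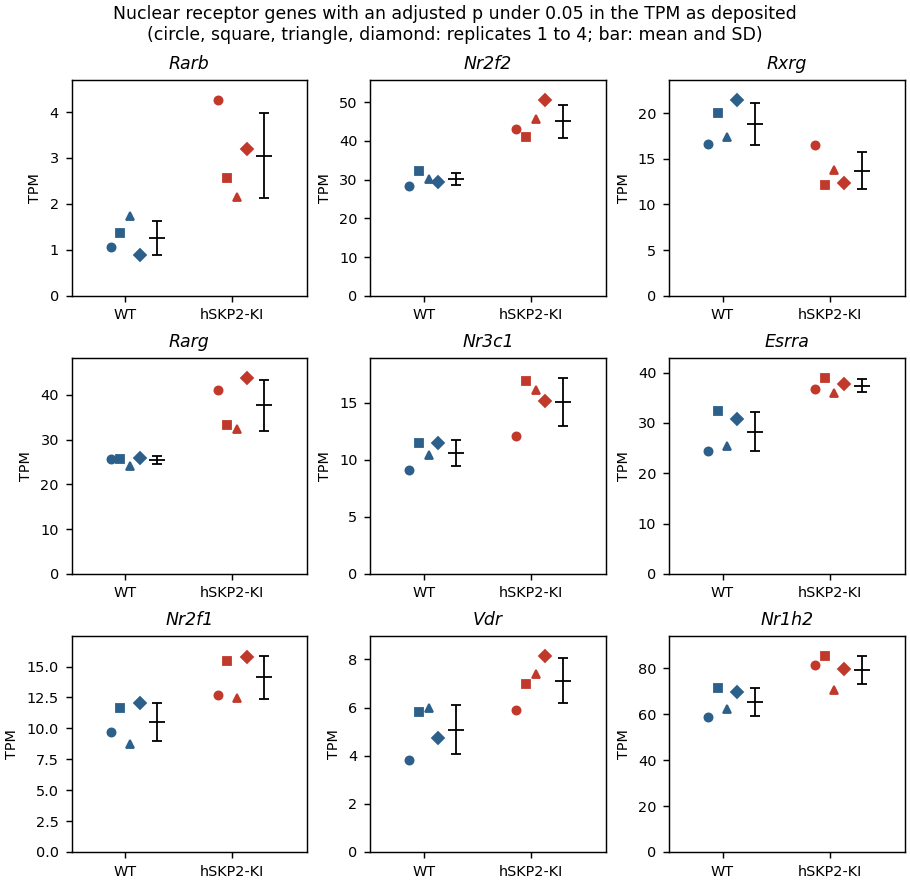
TPM of the 9 receptor genes with an adjusted p under 0.05 in the TPM as deposited, by mouse (circle, square, triangle and diamond are replicates 1 to 4 of each genotype), with the mean and SD beside them (n = 4). The top row holds Rarb, Nr2f2 and Rxrg, which also passed after median-ratio scaling; the other 6 did not pass after it, and knock-in and WT values overlap in those of Nr1h2 and Vdr.

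Genes that retinoic acid receptors are known to induce were taken as a list of 7, of which 5 were tested. Cyp26a1 and Crabp2 were below the filter, at or under 0.43 TPM in every mouse. In the TPM as deposited 4 of the 5 were higher, and 2 of the 5 were higher in both scalings, where 32.7% and 6.92% of all genes were. The median log2 fold change of the 5 was 0.71 as deposited and 0.52 after scaling, against 0.23 and -0.01 for all genes. Rarres2, which encodes the secreted chemoattractant chemerin, had TPM of 49.1, 83.9, 50.6 and 63.2 in hSKP2-KI and 30.7, 27.5, 25.0 and 35.5 in WT, and its log2 fold change was 1.01 (adjusted p = 0.00260) and 0.75 after scaling (adjusted p = 0.0216). Cyp26b1, a retinoic acid hydroxylase, had TPM of 4.15, 3.35, 3.41 and 4.41 against 1.96, 2.14, 2.01 and 1.66 (0.71, adjusted p = 0.00313, and 0.52, adjusted p = 0.0206). In both genes every knock-in mouse was above every WT mouse. The remaining members, outside the naming rule, are given to complete the list. Tgm2 (0.61, adjusted p = 0.00152) and Dhrs3 (0.65, adjusted p = 0.0109) passed as deposited but not after scaling (0.34, adjusted p = 0.0691, and 0.39, adjusted p = 0.142). Stra6 passed in neither, with 8.74 to 29.5 TPM in hSKP2-KI and 2.74 to 9.74 TPM in WT. Rarres2 and Tgm2 were highest in hSKP2-KI mouse 2, where the fibroblast (7.04), smooth muscle (8.00) and macrophage (4.49) lists were also highest, and Cyp26b1 was lowest there among the knock-in mice. Fibroblast markers had a median log2 fold change of 0.89 as deposited and 0.63 after scaling, and the part of cell composition in the list was not tested.

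**Figure D4:**
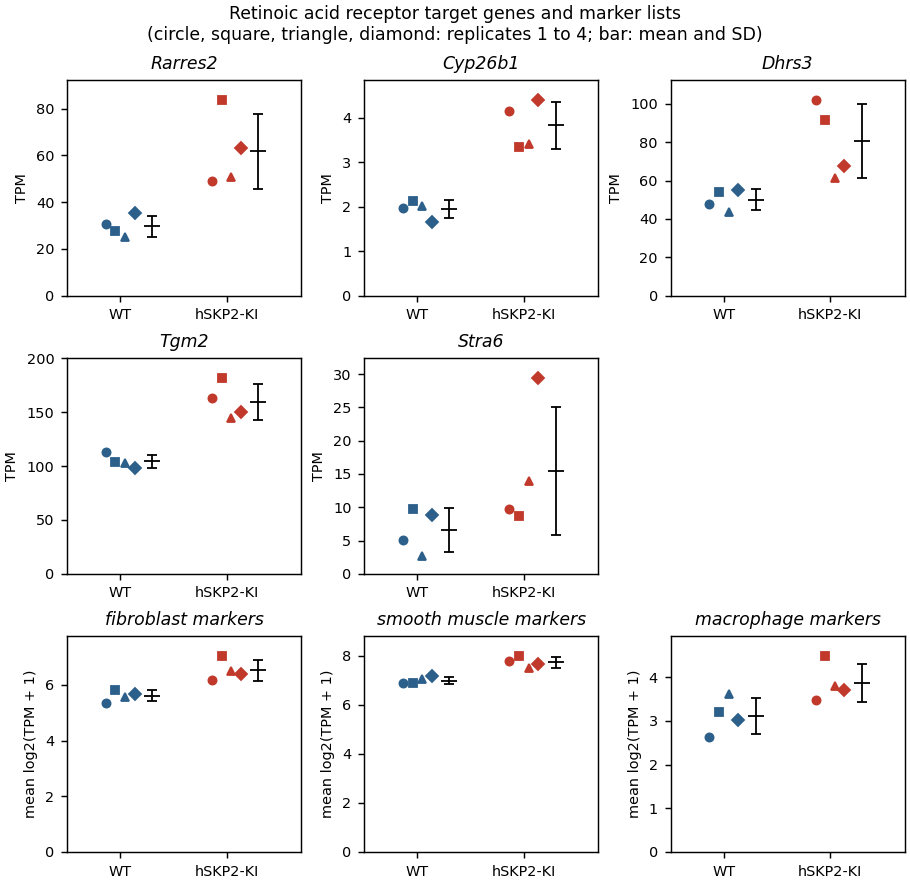
TPM of the 5 tested retinoic acid receptor target genes by mouse, and below them the mean log2(TPM + 1) of the fibroblast, smooth muscle and macrophage marker lists (circle, square, triangle and diamond are replicates 1 to 4, the bar gives mean and SD, n = 4). Knock-in points lie among the WT points only for Stra6 and the macrophage list, and the square of hSKP2-KI mouse 2 is highest for Rarres2, Tgm2 and all 3 lists.

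Nr2f2 (COUP-TFII), an orphan receptor of stromal and venous endothelial cells, was the other gene higher in both scalings. Its TPM was 43.0, 41.0, 45.8 and 50.7 in hSKP2-KI and 28.4, 32.2, 30.3 and 29.5 in WT. All 4 knock-in mice were above the WT range, and the spread within each genotype was small (45.1 ± 4.22 against 30.1 ± 1.58 TPM, SD, n = 4), a ratio of 1.50. The log2 fold change was 0.57 (SE 0.08, adjusted p = 0.00190) as deposited and 0.30 (SE 0.07, adjusted p = 0.0287) after scaling. With 1 mouse left out it passed in 8 of 8 fits as deposited (0.51 to 0.61). After scaling it passed in 1 of 8, that without hSKP2-KI mouse 2, the others giving adjusted p of 0.0507 to 0.0799 and log2 fold changes of 0.26 to 0.32. The scaled rise of 0.30 was below the differences of the fibroblast (0.65), smooth muscle (0.49) and endothelial (0.41) lists on that scale, and their part in it was not tested. An antisense transcript, B130024G19Rik, shares 7.46% of its exon length. Nr2f1, its paralog, was at 12.5 to 15.8 TPM in hSKP2-KI and 8.75 to 12.0 TPM in WT, and passed as deposited only (0.40, adjusted p = 0.0320; 0.15, adjusted p = 0.382 after scaling). It was lost as deposited in 4 of 8 fits with 1 mouse left out, without WT mouse 1 (0.36), WT mouse 3 (0.32), hSKP2-KI mouse 2 (0.35) or hSKP2-KI mouse 4 (0.34).

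The other genes of that group did not pass. Nr2f6 gave -0.03 as deposited and -0.29 after scaling (adjusted p = 0.129), and 54.4% of its exon length is shared with Ocel1 on the other strand. Ocel1 had a mean of 24.8 ± 3.82 TPM in hSKP2-KI and 16.0 ± 2.41 TPM in WT (SD, n = 4). The testicular receptors Nr2c1 and Nr2c2, broadly expressed orphans despite the name, gave 0.18 and 0.01 as deposited and -0.04 and -0.24 after scaling. Nr2c2 shares 30.7% of its exon length with Mrps25 on the other strand.

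Among the steroid hormone receptors, 1 of 4 tested genes passed, and only as deposited, where 33.9% of all genes passed (11.2% after scaling). Nr3c1, the glucocorticoid receptor, had TPM of 12.1 to 16.9 in hSKP2-KI and 9.09 to 11.5 in WT, without overlap, and gave 0.47 (SE 0.12, adjusted p = 0.0152) and, after scaling, 0.22 (SE 0.09, adjusted p = 0.166). After scaling it passed only without hSKP2-KI mouse 1 (0.30, adjusted p = 0.0487). The mineralocorticoid receptor Nr3c2 (5.99 to 6.77 against 4.71 to 5.91 TPM) gave 0.22 and -0.01. Both estrogen receptors were present at similar levels, Esr1, mainly a stromal receptor in prostate, at 4.94 to 7.35 TPM in hSKP2-KI and 3.76 to 6.12 TPM in WT, and Esr2, mainly an epithelial one, at 4.61 to 7.17 TPM against 4.77 to 7.68 TPM. Neither passed: Esr1 gave 0.30 (adjusted p = 0.146) and 0.08 (adjusted p = 0.747), and Esr2 gave -0.05 (adjusted p = 0.799) and -0.28 (adjusted p = 0.239). The progesterone receptor Pgr was below the filter at a highest TPM of 0.318. Of 6 glucocorticoid receptor targets tested, 1 was higher as deposited, against 32.7% of all genes, and none after scaling. That call was lost without WT mouse 1, without hSKP2-KI mouse 4 and without the filter. After scaling only, 1 other target was lower, against 4.25% of all genes. This lower call was lost in 4 of 8 fits with 1 mouse left out, those without WT mouse 1, 2 or 3 or hSKP2-KI mouse 2. Of 4 estrogen receptor targets tested, 2 were higher as deposited, in 8 of 8 fits with 1 mouse left out, and none after scaling.

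The estrogen-related receptors have no known natural hormone and are linked to mitochondrial genes. Esrra had TPM of 36.0 to 39.0 in hSKP2-KI and 24.5 to 32.4 in WT, without overlap, and gave 0.40 (SE 0.10, adjusted p = 0.0132) as deposited, passing in 8 of 8 fits with 1 mouse left out, and 0.14 (SE 0.07, adjusted p = 0.226) after scaling, where the genotypes overlapped. Esrrg was at 4.57 to 6.79 TPM against 4.69 to 6.95 TPM, with -0.02 and -0.25 (adjusted p = 0.214). Esrrb was below the filter with at most 0.231 TPM.

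Vdr, the vitamin D receptor, was at 5.92 to 8.15 TPM in hSKP2-KI and 3.80 to 5.98 TPM in WT and passed as deposited only (0.42, adjusted p = 0.0410; 0.19, adjusted p = 0.329 after scaling). That call was lost in 5 of 8 fits with 1 mouse left out, without WT mouse 1 (0.32), WT mouse 4 (0.40) or hSKP2-KI mouse 2, 3 or 4 (0.43, 0.40 and 0.36). Its target Cyp24a1, the vitamin D 24-hydroxylase, was listed at 0 in every mouse, and of the 4 targets listed only Trpv6, a calcium channel, was above the filter and did not pass in either scaling, though it did as deposited without WT mouse 3 (adjusted p = 0.0238) or hSKP2-KI mouse 2 (adjusted p = 0.0460). The thyroid hormone receptors did not pass. Thra was at 27.1 to 35.3 TPM in hSKP2-KI and 22.7 to 31.3 TPM in WT (0.21 and -0.05), and Thrb at 1.82 to 2.20 TPM against 1.30 to 1.88 TPM (0.21 and 0.03).

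Nr1h2, the most abundant receptor, passed as deposited only. It gave 0.27 (SE 0.09, adjusted p = 0.0370), and after scaling 0.01 (SE 0.07, adjusted p = 0.963) with a 95% interval of -0.15 to 0.17. As deposited it passed in 3 of 8 fits with 1 mouse left out and was lost without WT mouse 1 (0.22), WT mouse 3 (0.25) or hSKP2-KI mouse 1, 2 or 4 (0.26, 0.24 and 0.27). Nr1h3, the liver X receptor alpha of macrophages, liver and fat, was at 5.75, 10.7, 6.69 and 7.65 TPM in hSKP2-KI and 5.36, 6.20, 4.26 and 5.36 TPM in WT, and did not pass (0.44, adjusted p = 0.0605; 0.21, adjusted p = 0.421 after scaling). Its highest value was in hSKP2-KI mouse 2, where the macrophage list was also highest, at 4.49. Of 8 LXR target genes, 3 were higher as deposited (32.7% of all genes) and none after scaling, with medians of 0.34 and 0.08. The bile acid and xenobiotic receptors of liver and gut, Nr1h4, Nr1h5, Nr1i2 and Nr1i3, were below the filter, with highest TPM of 1.29, 0.0752, 0.0357 and 0.0759. The 1.29 TPM of Nr1h4 was that of hSKP2-KI mouse 4, and all other mice were at or under 0.744 TPM.

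None of the 3 PPARs, the receptors of fatty acids and their derivatives, passed. Ppard was the most abundant at 17.1 to 20.9 TPM in hSKP2-KI and 15.8 to 18.6 TPM in WT (0.13 and -0.13). Pparg, the adipocyte regulator, was at 2.89, 4.02, 3.43 and 5.01 TPM against 2.32, 3.62, 1.92 and 4.03 TPM (0.30 and 0.10). It was highest in hSKP2-KI mouse 4 and lowest in WT mouse 3, which were also the highest (5.65) and lowest (3.17) for the adipocyte marker list, and its part in the spread was not tested. Ppara was at 1.28 to 2.14 TPM against 1.32 to 1.64 TPM (0.03 and -0.14). Of 10 PPAR targets tested, 3 were higher as deposited, against 32.7% of all genes, and none after scaling. The 3 became 0 without WT mouse 3 and without the filter, 1 without WT mouse 4, hSKP2-KI mouse 2 or hSKP2-KI mouse 4, and 5 without WT mouse 2 or hSKP2-KI mouse 1.

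RORs activate and REV-ERBs repress clock genes through the same DNA sites. Nr1d1 (REV-ERB alpha) had the widest spread of any abundant receptor, with TPM of 21.1, 56.4, 30.7 and 29.8 in hSKP2-KI and 40.3, 32.1, 27.5 and 48.7 in WT, and gave -0.16 (SE 0.26, adjusted p = 0.622) and -0.42 (SE 0.27, adjusted p = 0.342). Nr1d2 (REV-ERB beta) had TPM of 23.1, 35.1, 34.6 and 35.5 against 22.0, 38.9, 32.6 and 32.7 (0.03 and -0.23). The lowest mouse of each genotype was replicate 1. Rora (3.20 to 4.00 against 2.46 to 3.52 TPM) gave 0.19 and -0.02, and Rorb (2.08 to 2.63 against 2.18 to 2.61 TPM) gave -0.01 and -0.20. Of 15 other clock genes, 2 were higher as deposited, against 32.7% of all genes, and none after scaling. The 2 became 1 without hSKP2-KI mouse 3 or 4, where 3492 and 2881 of all 13080 genes were higher. Nfil3, a repressor of the same sites as Dbp, was lower in both, against 1.21% of all genes. Its TPM was 18.3, 15.4, 18.6 and 19.0 in hSKP2-KI and 21.7, 22.7, 22.6 and 22.4 in WT. Its log2 fold change was -0.31 (adjusted p = 0.0195) as deposited and -0.57 (adjusted p = 0.00463) after scaling. As deposited, Nfil3 was lost without hSKP2-KI mouse 2 (-0.25, adjusted p = 0.0518). The time of day of dissection is not given in the sources used here. Thra, Nr1d1 and Rara are neighbours on chromosome 11 (98740638 to 98974942), and Nr1d1 and Thra share 263 exonic bases on opposite strands, 8.55% and 5.70% of their exon length. Rarb, Thrb and Nr1d2 are neighbours on chromosome 14 (16430839 to 18239127). Of these 6 genes only Rarb passed the test.

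The NR4A receptors are ligand-independent and are known to be induced rapidly by stress or stimulation. Nr4a1 had TPM of 6.86, 7.46, 6.62 and 12.0 in hSKP2-KI and 5.08, 14.1, 11.7 and 6.64 in WT, Nr4a2 1.26 to 1.80 against 0.863 to 1.79, and Nr4a3 1.20 to 1.60 against 0.697 to 2.03. None of the 3 passed, and their log2 fold changes were -0.11, 0.14 and 0.10 as deposited and -0.35, -0.00 and -0.04 after scaling. Of 10 other immediate early genes tested, 1 was higher as deposited, against 32.7% of all genes, and none after scaling. The 1 became 2 without WT mouse 2 or hSKP2-KI mouse 3, where 4548 and 3492 of all 13080 genes were higher. Nr6a1, a germ cell factor, was at 3.12 to 3.62 TPM against 2.39 to 2.95 TPM (0.21 and 0.01).

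The other receptors below the filter were those of liver, gut, retina, brain and steroid-producing organs. Hnf4g reached 0.498 TPM, Nr0b2 0.127 TPM, Nr5a2 0.123 TPM, Hnf4a 0.0346 TPM and Nr5a1 0.0306 TPM. Nr2e1, Nr2e3 and Nr0b1 were listed at 0 in all 8 mice. No fold change was computed for these genes, and without read counts a listed 0 does not show that a transcript was absent.

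The coregulators through which the receptors act had medians close to those of all genes. Of 11 coactivators tested, 2 were higher as deposited, against 32.7% of all genes, and none after scaling, with a median of 0.22 and -0.03. The 2 became 4 without WT mouse 2 and 1 in 6 of the other 7 fits with 1 mouse left out, all but that without hSKP2-KI mouse 1. Of 8 corepressors tested, 2 were higher as deposited and none after scaling, with a median of 0.23 and -0.03, and the 2 became 1 without WT mouse 1, 3 or 4 or hSKP2-KI mouse 1, 2 or 4. After scaling only, 1 corepressor was lower, against 4.25% of all genes. That call held in 1 of 8 fits with 1 mouse left out, the one without hSKP2-KI mouse 3.

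Ratios between paralogs within a mouse do not depend on the scaling of the library. Of 15 pairs considered, 12 had both genes at 1 TPM or more in every mouse, and each was compared between genotypes by exact permutation of the 70 splits of the 8 mice (two-sided, smallest possible p = 0.0286). Pairs with Rxrg were not among the 15. None of the 12 separated the genotypes without overlap. An adjusted p under 0.05 would have needed at least 7 of the 12 at that smallest p together, so no single pair could reach it. The 3 lowest p were 0.0571 (exact, adjusted p = 0.229). They belonged to Esrra/Esrrg, with a log2 ratio of 2.72 ± 0.291 in hSKP2-KI and 2.29 ± 0.133 in WT, to Esr1/Esr2, with 0.02 ± 0.231 against -0.40 ± 0.272, and to Nr3c2/Nr3c1, with -1.23 ± 0.167 against -0.98 ± 0.0442 (SD, n = 4). The first 2 were above all WT mice in 3 of 4 knock-in mice, and the last was below all WT mice in 3 of 4. The pair Rarb/Rarg was not formed under this rule, since Rarb was under 1 TPM in WT mouse 4, and its ratio overlapped between genotypes (0.0667 to 0.104 in hSKP2-KI and 0.0344 to 0.0719 in WT).

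**Figure D5:**
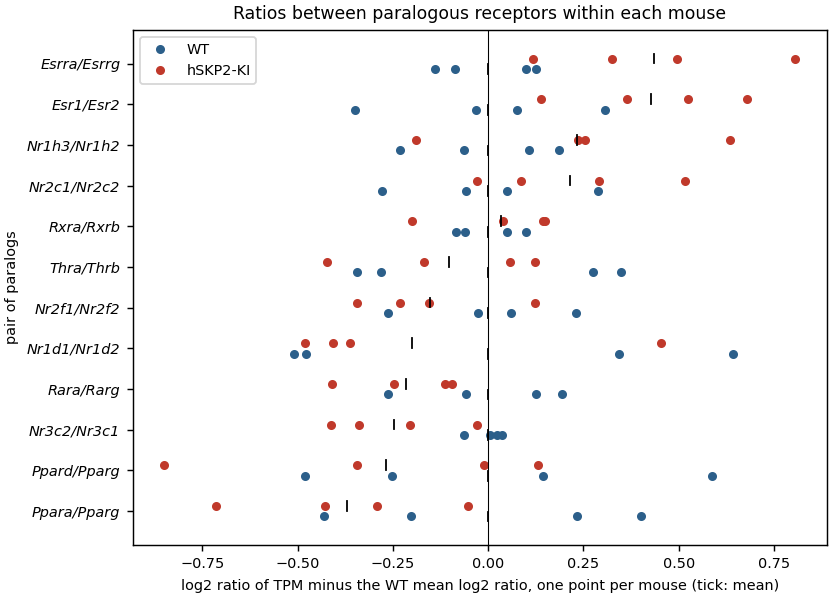
Log2 ratio of TPM between 12 pairs of paralogous receptors within each mouse, as the difference from the WT mean (blue WT, red hSKP2-KI, n = 4 each, black tick the mean). Knock-in and WT points overlap in each of these 12 pairs; the mean shift is largest for Esrra/Esrrg (0.44) and Esr1/Esr2 (0.43).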

How the data were processed

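The authors dissected ventral lobes of 4 hSKP2-KI and 4 WT mice and prepared 1 poly-A library per mouse. Per the paper, paired-end reads were trimmed and mapped in CLC software, whose version and counting options, strand included, are not given in the sources used here; the builds in the submitters' processing notes are mm10 and GRCm38. The authors deposited TPM, which carry no counts, so no interval from counts could be given. Samples were grouped by the genotype label. Genes that reached 1 TPM in 4 or more of the 8 samples were fitted as log2(TPM + 1) with limma 3.58.1 (R 4.3.3, mean-variance trend) on genotype, with Benjamini-Hochberg adjustment over 13080 genes and a threshold of 0.05, in the TPM as deposited and after median-ratio scaling. Only the fit without scaling was tested on simulated data, which held no shift in the share of secretory genes. Median-ratio scaling and the other steps were not tested in that way. Replicates are mice, and nothing says more of their rearing or dissection dates.

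The receptor genes, gene lists and marker lists were chosen with earlier results of these data known, and some genes of the lists are not reported here and stay out of their counts. By rule, values in every sample were given for receptors that passed in both scalings and for the 3 most abundant. Outside that rule they were also given for Rarg, Nr1h3, Pparg, Nr1d1, Nr1d2 and Nr4a1. All others were named with levels or fold changes. In the other lists, up to 3 genes that passed in both were named, and further names there were chosen after their values were seen. Alternatives were a pseudocount of 0.1, no filter, a mean TPM of at least 5, rescaling to the genes beyond the 20 most abundant, quantile normalization, robust empirical Bayes, weights by sample quality, a block for replicate number and leaving out each mouse. The same alternatives together with median-ratio scaling were added after seeing the data. Positions and exon overlaps came from GENCODE M21 (GRCm38) and promoter windows from RefSeq (GRCm38.p6). Figures were drawn with matplotlib 3.10.9.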

Additional observations from a re-analysis of the deposited data

Results flagged for a closer look

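In each genotype, the mouse at either end of the range was compared with its nearest neighbour by Dixon's test for 4 values. Of 66 groups of 4 tested, 3 stood out, and chance alone gives about 1 in 20. Nr4a1 was at 12.0 TPM in hSKP2-KI mouse 4, with the other knock-in mice between 6.62 and 7.46 TPM, and the gap was 0.845 of the range. Nr1d2 was at 23.1 TPM in hSKP2-KI mouse 1, with the others between 34.6 and 35.5 TPM, a gap of 0.934 of the range. Rarg was at 24.1 TPM in WT mouse 3, with the other WT mice between 25.7 and 25.9 TPM, a gap of 0.934 of a narrow range.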

How the results depend on the processing

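Composition scaling changed the counts of higher calls most. Over all 13080 genes, 4272 passed higher as deposited and 905 after median-ratio scaling. It was 892 after rescaling without the 20 most abundant genes and 709 after quantile normalization. Without the filter 3255 of 23826 passed higher, and with 1 mouse left out 2839 to 4548 of 13080. In the first 4 of these settings, 161, 556, 438 and 608 of all genes passed lower. Of the 33 receptors, 8 passed higher as deposited, against 2 after median-ratio scaling, 2 after rescaling without the 20 most abundant genes, 1 after quantile normalization and 5 without the filter (where more genes were tested), and 5 to 10 with 1 mouse left out; the lowest count came without WT mouse 1, hSKP2-KI mouse 2 or hSKP2-KI mouse 4. The count lower was 1 under every scaling and 0 to 1 with 1 mouse left out, 0 without WT mouse 4, hSKP2-KI mouse 2 or hSKP2-KI mouse 4. Passing in both scalings, higher, fell from 2 to 1 with a mean TPM of at least 5, to 1 with the replicate block, to 0 without the filter and to 0 to 1 with 1 mouse left out, and lower ranged over 0 to 1. In the gene lists outside the receptors, 20 higher as deposited became 2 after median-ratio scaling, 2 after quantile normalization, 3 after rescaling and 13 without the filter, and 1 lower became 3, 3 and 2 under the scalings and 0 to 2 with 1 mouse left out. Rarb missed the threshold after quantile normalization (0.53, adjusted p = 0.0998), and after median-ratio scaling with the replicate block (adjusted p = 0.0836) or without the filter (adjusted p = 0.106). Rxrg and Nr2f2 passed under every alternative scaling.

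The correlations of deviations of mice with the same replicate number were 0.22, -0.11, 0.17 and -0.01. Whether the numbers pair the mice is not given in the labels and was not tested. A replicate block gave 11 receptors higher and 1 lower as deposited. Over all 13080 genes it gave 4941 higher and 187 lower, against 4272 and 161 without the block.

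No sign below belongs to a receptor that passed. After median-ratio scaling the log2 fold change turned negative for Nr2c2 (-0.24), Nr2c1 (-0.036), Nr4a3 (-0.045), Nr4a2 (-0.0035), Ppard (-0.13), Ppara (-0.14), Nr1d2 (-0.23), Rora (-0.019), Rxrb (-0.056), Rxra (-0.023), Nr3c2 (-0.012) and Thra (-0.046), the luminal marker list went to -0.084 and the smooth muscle list to 0.49. After quantile normalization it did so for Nr2c2 (-0.26), Nr2c1 (-0.15), Nr4a3 (-0.17), Nr4a2 (-0.14), Nr6a1 (-0.13), Ppard (-0.13), Pparg (-0.0199), Ppara (-0.26), Nr1d2 (-0.20), Rora (-0.15), Rara (-0.0056), Rxrb (-0.037), Rxra (-0.00796), Nr3c2 (-0.089), Esr1 (-0.013), Thra (-0.022) and Thrb (-0.093). After rescaling without the 20 most abundant genes it did so for Nr2c2 (-0.23), Nr2c1 (-0.0201), Nr4a3 (-0.032), Ppard (-0.11), Ppara (-0.15), Nr1d2 (-0.21), Rora (-0.0035), Rxrb (-0.036), Rxra (-0.00299) and Thra (-0.026). With sample quality weights the sign turned for Nr2c2 (-0.048), Nr1d2 (-0.017), Rorb (0.036) and Esr2 (0.035). With 1 mouse left out the sign turned for Nr2f6 (-0.10 to 0.047), Nr2c2 (-0.12 to 0.13), Nr4a1 (-0.33 to 0.10), Nr4a3 (-0.031 to 0.25), Ppara (-0.078 to 0.076), Nr1d1 (-0.42 to 0.037), Nr1d2 (-0.13 to 0.18), Rorb (-0.047 to 0.045), Esrrg (-0.10 to 0.066) and Esr2 (-0.15 to 0.057), and for the log2 paralog ratio Rxra/Rxrb (-0.0053 to 0.11), and likewise for Thra/Thrb (-0.22 to 0.014) and Nr1d1/Nr1d2 (-0.42 to 0.015). The files hold no read counts, so the counting error of low genes such as Rarb was not computed.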

Other observations

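Clock genes and REV-ERBs showed an order across replicate numbers that was noticed after the values were seen. Of 17 genes (15 clock genes, Nr1d1 and Nr1d2), 9 were lowest in replicate 1 of both genotypes in the TPM as deposited, among them Dbp, Per1, Per3 and Nr1d2, and Npas2 and Arntl were highest there. Replicate 2 was lowest in both genotypes for 1 gene and highest for 1, and replicates 3 and 4 for 0. The median ratio used in scaling was lowest in replicate 1 of each genotype. It was 1.07 in hSKP2-KI mouse 1 and 0.828 in WT mouse 1, so a typical gene was also low there as deposited. The share of all genes with this order was not computed. After median-ratio scaling, 6 genes were lowest and 3 highest in replicate 1 of both genotypes, against 2 and 2 for replicate 2, 0 and 2 for replicate 3 and 0 and 0 for replicate 4. Dbp, for instance, had TPM of 28.4, 48.0, 37.3 and 37.9 in hSKP2-KI and 27.5, 49.7, 35.3 and 44.6 in WT. Nothing in the labels says that mice with the same number were handled together, and the time of dissection was not tested.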
